A study of Musca domestica with 24 samples.

Results

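In house fly testes, 120 genes had more RNA after development at 18 °C than at 29 °C in both strains studied, while their level in heads was nearly level between the temperatures or somewhat lower at 18 °C. The genes were picked by these values. From 16540 genes, 5995 were taken that lie on chromosome elements B, C, D or E, carry a LOC identifier, and average at least 1 CPM in the head libraries and at least 5 CPM in the testis libraries. CPM, counts per M counts (M for mega), is a gene's count scaled by the total of its library. For each strain and tissue the log2 ratio of mean CPM at 18 °C over 29 °C was formed with 0.5 CPM added to each mean. In 2000 genes both head ratios lay between -0.5 and 0.1, and these are called the candidates. The 120 with the largest value of the smaller testis ratio are the cool-raised testis genes. The temperature values below therefore describe the choice and are given without a test.

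The study profiled polyA RNA of *Musca domestica* in 24 libraries from 8 groups of 3 replicates. The groups were testes of CSrab males raised at 18 °C or 29 °C, testes of IsoCS males raised at 18 °C or 29 °C, and heads of the same 4 combinations. The series describes the strains as isogenic except for their proto-Y chromosomes, so no wild type or untreated group stands beside them, and the replicates are named biological without saying whether flies were pooled. In published descriptions CSrab carries the IIIM proto-Y and IsoCS the YM proto-Y, which the sample labels do not state.

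The testis is the organ in which germ cells divide, pass through meiosis and are rebuilt into sperm, inside a sheath of somatic cells. In flies the transcript content of the testis follows the stages present, since spermatocytes make much of the RNA that later stages use. Proto-Y chromosomes are young Y chromosomes that carry a male determiner, and in the house fly several of them occur in nature, with frequencies that vary with climate.

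The tables used here pair the LOC identifiers with no product names, so the cool-raised testis genes are described by level, position and behaviour, and no role is given for any of them. A RefSeq gene table of a newer assembly held 118 of the 120 genes, all of them protein-coding, and gave another name to 0. LOC101892014 and LOC101887752 are not in it. Per the files, 25 of the genes lie on element B, 26 on C, 25 on D and 44 on E. These shares of 20.8%, 21.7%, 20.8% and 36.7% compare with 20.1%, 27.0%, 22.4% and 30.4% of the candidates. Elements A to F are the chromosome arms that fly genomes share. In the house fly, chromosome III corresponds to element A, and the sex chromosomes to element F, and genes of both were left out by the rule.

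Testis libraries held 14.9 M to 40.01 M counts and head libraries 15.7 M to 35.7 M counts. The cool-raised testis genes had 22 to 10990 counts in a testis library and 11 to 25850 in a head library, and none was at 0 anywhere. In 17 of the genes a testis library, and in 31 a head library, had under 100 counts, where counting error adds to the spread between replicates. The 10 most abundant genes of a library took 6.77% to 24.5% of testis counts, with the highest share in CSrab testes at 29 °C replicate 3, and 5.69% to 11.7% of head counts. The tissue labels were checked on the few neuron and fat body genes that the tables name. The neuropeptide gene pdf had 0 to 0.150 CPM in testes and 4.89 to 23.3 CPM in heads, and the yolk protein gene yp3 had 8.89 to 82.7 CPM in testes and 105 to 1190 CPM in heads. Para-like had 34.6 to 191 CPM in testes and 74.95 to 368 CPM in heads, so its ranges overlapped, and IR25a was higher in testes, at 122.6 to 218 CPM against 8.34 to 33.1 CPM in heads. No named germ cell marker was found in the tables, so the testis label was not checked from that side.

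One testis library lay furthest from the mean of its group. In IsoCS testes at 29 °C, replicate 3 was the highest of the 3 libraries for 112 of the 120 genes, and replicate 2 was the lowest for 104. Among the candidates the same libraries were highest for 71.6% and lowest for 64.6% of genes. The order was alike in IsoCS testes at 18 °C, where replicate 3 was the highest for 87 genes and replicate 2 the lowest for 78. Of the candidates 47.2% and 42.4% did so there. CSrab testes at 29 °C had an uneven order too. There replicate 2 was the highest for 97 genes and replicate 3 the lowest for 94, as for 61.9% and 71.2% of the candidates. The summary values that rest on IsoCS testes at 29 °C are also given without replicate 3 of that group. Replicate 3 at 18 °C stays in, and the IsoCS ratios of 18 °C over 29 °C then rise. The values of single genes are given with all libraries unless stated.

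Summed over the 120 genes, CSrab testes held 7700, 7418 and 6153 CPM at 18 °C, against 3905, 4515 and 3268 CPM at 29 °C. IsoCS testes held 6273, 6227 and 6971 CPM at 18 °C, against 3161, 2345 and 4802 CPM at 29 °C. All 6 testis sums at 18 °C lay above all 6 at 29 °C, and the largest sum at 29 °C was that of IsoCS replicate 3. Without it IsoCS testes averaged 2753 CPM at 29 °C. In heads the sums averaged 5002 ± 309 CPM at 18 °C and 5342 ± 381 CPM at 29 °C in CSrab, and 4462 ± 58.9 CPM at 18 °C and 5235 ± 204 CPM at 29 °C in IsoCS (SD, n = 3 each). In RNA from whole organs, fewer cells of a type and less RNA per cell cannot be told apart. The share of counts held by the 10 most abundant genes was 6.77% to 15.04% in testes at 18 °C and 8.13% to 24.5% in testes at 29 °C, and its part in these sums was not tested.

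The testis ratio of the cool-raised genes had a median of 0.77 in CSrab, with a range of 0.64 to 2.01, and of 0.87 in IsoCS, with a range of 0.64 to 2.54. The candidates as a whole had medians of 0.21 in CSrab and 0.33 in IsoCS, so most genes of this kind tended to higher CPM at 18 °C in testes. The median head ratio of the cool-raised genes was -0.05 in CSrab and -0.24 in IsoCS, against -0.07 and -0.23 among the candidates. In 14 of the 120 genes both testis ratios reached 1, a doubling. The last genes taken, LOC101890594 and LOC101888288, had smaller ratios of 0.637 and 0.637, and the next genes left out, LOC101889087 and LOC101891116, had 0.630 and 0.630, so the edge of the group is a step in a continuous range.

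**Figure D1:**
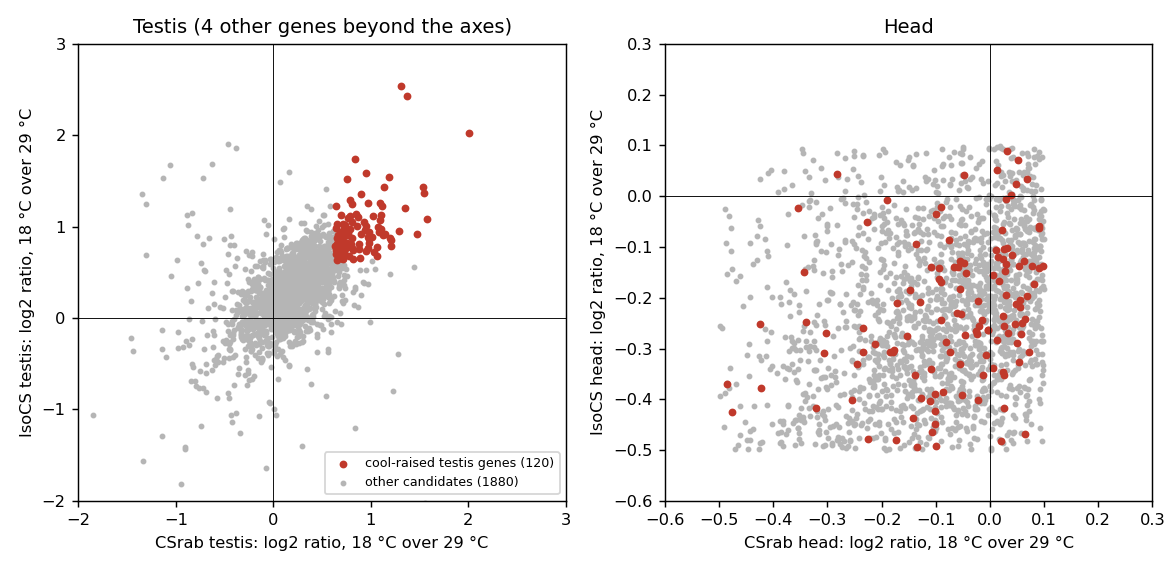
Log2 ratio of mean CPM at 18 °C over 29 °C (with 0.5 CPM added) in CSrab on one axis and in IsoCS on the other, in testis and in head, for the 120 cool-raised testis genes and the 1880 other candidates. The chosen genes form the upper right edge of the testis cloud, starting at 0.637, and lie among the other candidates in the head panel.

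Scaling mattered for the size of these ratios. With TMM, a scaling that resists a few very abundant genes, the median fitted testis change of all genes lay at -0.02 in CSrab and 0.00 in IsoCS on the log2 scale, and that of the candidates at -0.03 and 0.05. On that scale the median change of the cool-raised genes was 0.55 in CSrab and 0.62 in IsoCS, and all 120 were higher at 18 °C in both strains. The IsoCS median was 0.84 without replicate 3 at 29 °C. In heads the medians were -0.13 in CSrab and -0.11 in IsoCS.

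Replicates separated the temperatures in most of the genes. All 3 CSrab testis libraries at 18 °C lay above all 3 at 29 °C for 114 of the 120 genes, where 25.7% of all tested genes did so. In IsoCS testes this held for 101 genes, where the share of all tested genes was 25.3%, and in both strains for 99 genes, where it was 13.0%. Pooling the strains, all 6 testis libraries at 18 °C lay above all 6 at 29 °C for 57 genes, where 6.63% of all tested genes did so. These counts without replicate 3 of IsoCS testes at 29 °C were 118 in IsoCS, 113 in both strains and 92 with the strains pooled, where 49.8%, 19.8% and 11.9% of tested genes did so. In heads no gene of the group had its 3 libraries at 18 °C above those at 29 °C in either strain, where 11.8% of tested genes did in CSrab and 6.15% in IsoCS. All 3 head libraries at 18 °C lay below those at 29 °C for 8 genes in CSrab, where 7.04% of tested genes did so, and for 41 in IsoCS, where 23.6% did so. The rule chose on these contrasts, and nothing is read from the counts.

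In the fit across all genes by edgeR's quasi-likelihood test, with p-values adjusted by Benjamini and Hochberg's method, 29 of the 120 passed an adjusted p of 0.05 in CSrab testes, where 3.50% of tested genes passed with a higher level at 18 °C. In IsoCS testes 31 passed, where 3.81% did so. Both strains passed for 17 genes, where 1.26% of tested genes did, and at least 1 strain for 43, where 6.05% did. In heads 0 passed in CSrab and 0 in IsoCS, where 0.283% and 0.697% of tested genes passed in either direction. At an unadjusted p under 0.05, 10 and 4 of the genes were lower at 18 °C in the heads of CSrab and of IsoCS, and DESeq2 called 3 and 0. Without replicate 3 of IsoCS testes at 29 °C, 103 genes passed in IsoCS testes and 59 in CSrab testes, where 25.6% and 10.2% of tested genes passed in either direction. Other libraries lowered the counts when left out, to 9 in IsoCS testes without IsoCS replicate 1 at 18 °C and to 11 in CSrab testes without CSrab replicate 2 at 18 °C. These counts too describe a choice made on the same contrasts.

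LOC101889291, on element C, stood at the head of the list. It had 104, 116 and 119.2 CPM in CSrab testes at 18 °C, against 28.7, 37.0 and 17.6 CPM at 29 °C. In IsoCS testes it had 36.9, 44.0 and 62.9 CPM at 18 °C, against 11.5, 5.88 and 16.8 CPM at 29 °C. The temperatures did not overlap within a strain, while the lowest IsoCS library at 18 °C lay just under the highest CSrab library at 29 °C. Its testis ratio was 2.01 in CSrab and 2.02 in IsoCS, and in all 12 head libraries it lay between 1.85 and 4.92 CPM.

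LOC101895405, on element D, had 95.01, 116.7 and 102 CPM in CSrab testes at 18 °C, against 39.6, 45.3 and 22.5 CPM at 29 °C. In IsoCS testes it had 87.2, 71.0 and 121.5 CPM at 18 °C, against 26.2, 11.8 and 64.3 CPM at 29 °C. Both strains kept the temperatures apart, with IsoCS replicate 3 at 29 °C close under the 18 °C range. In heads it ran the other way in IsoCS, with 19.2, 18.1 and 19.3 CPM at 18 °C against 25.2, 28.6 and 26.4 CPM at 29 °C. This head ratio of -0.49 lies just inside the lower limit of the rule.

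LOC101891916, on element E, was nearly even in CSrab testes at 18 °C, at 58.3, 59.6 and 58.3 CPM, against 20.8, 23.1 and 15.5 CPM at 29 °C. In IsoCS testes it had 47.8, 52.3 and 70.7 CPM at 18 °C, against 18.6, 12.6 and 34.1 CPM at 29 °C. No library of one temperature fell into the range of the other. Its head values were the most scattered of the 120 genes, from 1.42 to 32.6 CPM, a range of 22.9-fold where the median gene of the group spanned 1.77-fold across head libraries. High and low head values occurred in every group, so its head ratios of -0.35 in CSrab and -0.02 in IsoCS rest on a wide spread.

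LOC101889690 and LOC101897546 had much larger ratios in IsoCS than in CSrab. LOC101889690, on element C, had 11.4, 8.78 and 4.76 CPM in CSrab testes at 18 °C, against 3.86, 3.81 and 1.07 CPM at 29 °C. In IsoCS testes it had 16.4, 22.03 and 11.9 CPM at 18 °C, against 2.37, 0.880 and 4.83 CPM at 29 °C. The ratios were 1.37 in CSrab and 2.43 in IsoCS, without overlap of the temperatures in either strain. LOC101897546, on element E, had 44.6, 33.9 and 20.0 CPM in CSrab testes at 18 °C, against 22.9, 11.96 and 4.07 CPM at 29 °C, so a library of each temperature crossed. In IsoCS testes it had 90.1, 129 and 60.2 CPM at 18 °C, against 13.5, 4.88 and 28.5 CPM at 29 °C. Its ratios of 1.31 in CSrab and 2.54 in IsoCS differed by -1.23, the most negative difference of the group. At the other end LOC101891503, on element E, had ratios of 1.47 in CSrab and 0.92 in IsoCS, a difference of 0.55. Its levels were 14.3, 19.8 and 16.6 CPM in CSrab testes at 18 °C against 5.93, 7.11 and 4.29 CPM at 29 °C, and 9.52, 8.78 and 13.0 CPM in IsoCS testes at 18 °C against 5.30, 4.56 and 5.98 CPM at 29 °C.

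LOC101890268, on element C, averaged 86.5 ± 17.6 CPM at 18 °C and 33.6 ± 11.3 CPM at 29 °C in CSrab testes, and 51.5 ± 11.01 CPM at 18 °C and 22.1 ± 20.6 CPM at 29 °C in IsoCS testes (SD, n = 3 each). The wide spread at 29 °C in IsoCS came from 14.0, 6.72 and 45.5 CPM, the last of which overlapped the 18 °C values of 49.6, 41.5 and 63.3 CPM. LOC101887365, on element D, averaged 44.2 ± 18.2 CPM at 18 °C and 19.1 ± 5.49 CPM at 29 °C in CSrab testes, and 54.6 ± 12.6 CPM at 18 °C and 18.4 ± 4.99 CPM at 29 °C in IsoCS testes. This gene was mainly a head transcript, with 103 to 214 CPM in heads. LOC101889231 on element E, LOC101898799 on B and LOC101891182 on E, the others of the 10 largest ratios, had ratios of 1.14, 1.11 and 1.10 in CSrab and 1.44, 1.22 and 1.12 in IsoCS.

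**Figure D2:**
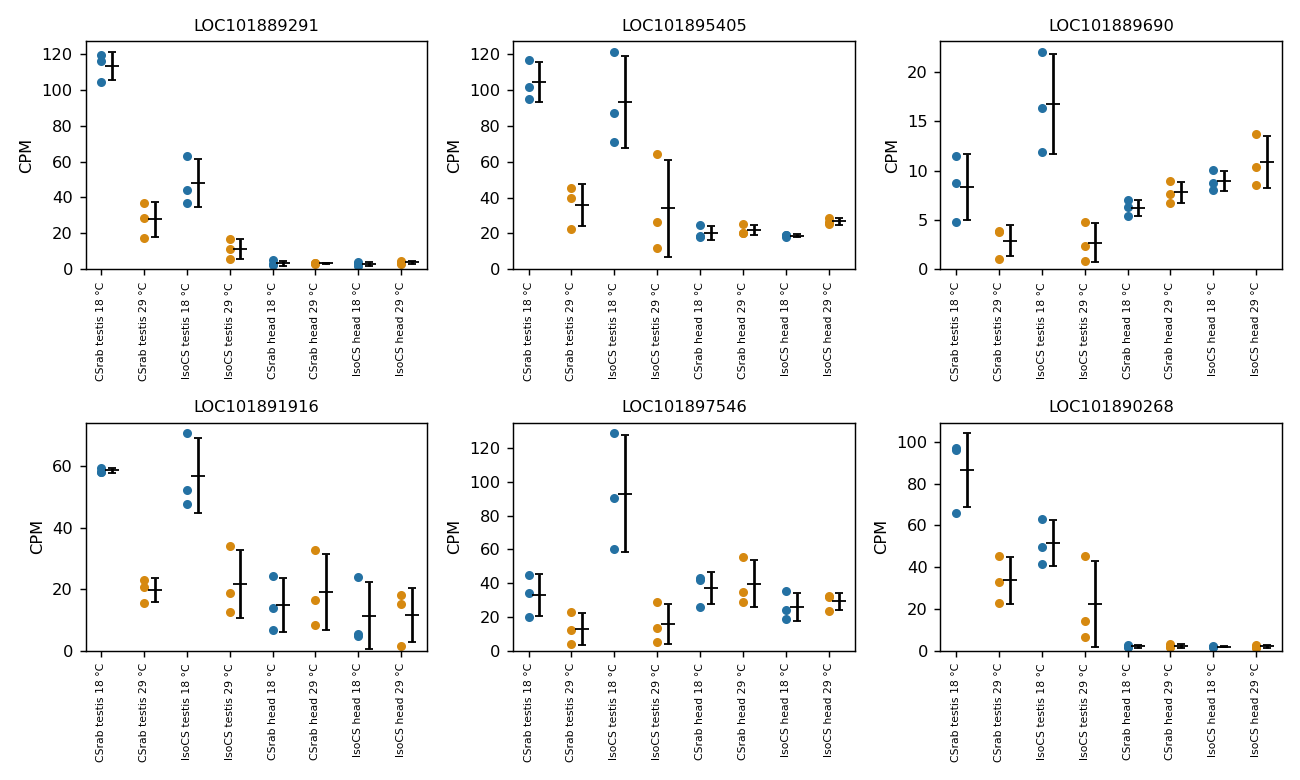
CPM in each of the 24 libraries for the 6 genes with the largest rule value, with the mean and SD of each group of 3 as a black dash and bar. In testes the 18 °C points of LOC101889291 sit between 36.9 and 119.2 CPM and its 29 °C points between 5.88 and 37.0 CPM, while its head points stay between 1.85 and 4.92 CPM.

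The 6 most abundant genes of the group at 18 °C had testis ratios of 0.64 to 1.15. LOC101890594, on element B and the last gene but one of the ranking, had the highest testis level at 18 °C, with 467, 351 and 183 CPM in CSrab against 184, 187 and 267 CPM at 29 °C. In IsoCS it had 285, 331 and 214 CPM at 18 °C against 157, 227 and 149 CPM at 29 °C. Both strains overlapped between temperatures, so its inclusion rests on means. LOC101895327, on element D, had 286, 300 and 293 CPM in CSrab testes at 18 °C against 187, 235 and 127 CPM at 29 °C, and 216, 215 and 269 CPM in IsoCS testes at 18 °C against 130, 85.7 and 183 CPM at 29 °C, without overlap.

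LOC101894167, on element E, scattered most among the abundant genes. It had 201, 106 and 126 CPM in CSrab testes at 18 °C against 75.6, 66.1 and 53.4 CPM at 29 °C. In IsoCS testes it had 174, 346 and 233 CPM at 18 °C against 275, 30.8 and 90.9 CPM at 29 °C. Its IsoCS replicate 1 at 29 °C lay above 2 of the 3 libraries at 18 °C, although that library was low for most of the group. LOC101887752 on element B, LOC101887262 on C and LOC101892623 on E averaged 159 ± 29.8, 161 ± 38.0 and 152 ± 15.4 CPM in CSrab testes at 18 °C, against 97.9 ± 15.5, 99.5 ± 2.49 and 88.7 ± 13.9 CPM at 29 °C (SD, n = 3 each). Their IsoCS ratios were 0.94, 0.66 and 0.67.

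With all libraries the strains gave similar ratios for most of the group, which the rule favours since it ranks by the smaller of both. The CSrab and IsoCS ratios lay within 0.25 of each other for 90 of the 120 genes, with a median distance of 0.14, and the CSrab ratio was the larger for 40. Without replicate 3 of IsoCS testes at 29 °C only 26 genes lay within 0.25, the median distance was 0.46, and the CSrab ratio was the larger for 15. A difference of the temperature effect between the strains, CSrab minus IsoCS, was called for 0 of the 120 genes by edgeR, where 0.249% of tested genes were called. At an unadjusted p under 0.05 there were 3, and DESeq2 called 0. Without replicate 3 of IsoCS testes at 29 °C, 2 genes were called, both with the smaller temperature effect in CSrab, where 0.911% of tested genes were called. Among the authors' deposited values, an adjusted interaction p-value under 0.05 was held by 0 of the 120 genes. Of all genes with a value 1.84% have one. The lowest adjusted value among the 120 genes is 0.342, for LOC101899577.

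Replicates of one group deviated together across the 120 genes in testes. For this, CPM was scaled by TMM and each group's mean of log2(CPM + 0.5) was subtracted. The median pairwise correlation between genes over the 12 testis libraries was then 0.571, against 0.0534 among the candidates. Over the 12 head libraries the medians were 0.0434 for the group and 0.0165 for the candidates. The genes of a pair share the libraries and their scaling, so this is a description. The common movement was greatest in IsoCS testes at 29 °C. Relative to each gene's mean over all testis libraries, the median log2 deviation of the 120 genes there was -0.68 in replicate 1, -1.10 in replicate 2 and 0.07 in replicate 3 on CPM without TMM. With TMM it was -0.52, -0.80 and 0.00. With IsoCS testes at 29 °C left out the median correlation was 0.199, against 0.0434 among the candidates, and without their replicate 3 alone it was 0.245, against 0.0440. Leaving out any of the other testis groups gave 0.606 to 0.681.

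The remaining testis groups were tighter. On CPM without TMM, CSrab testes had median deviations of 0.61, 0.56 and 0.26 at 18 °C, against -0.33, -0.09 and -0.57 at 29 °C, and IsoCS testes at 18 °C had 0.40, 0.31 and 0.54. Replicate 3 was the lowest CSrab library for 101 genes at 18 °C and for 94 at 29 °C, and it was lowest for 75% and 71.2% of the candidates as well. The median IsoCS testis ratio of the group was 1.23 without replicate 3 at 29 °C and 0.66 without replicate 2, with 0.48 and 0.22 for the candidates. The cause of the spread within IsoCS testes at 29 °C was not tested.

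**Figure D3:**
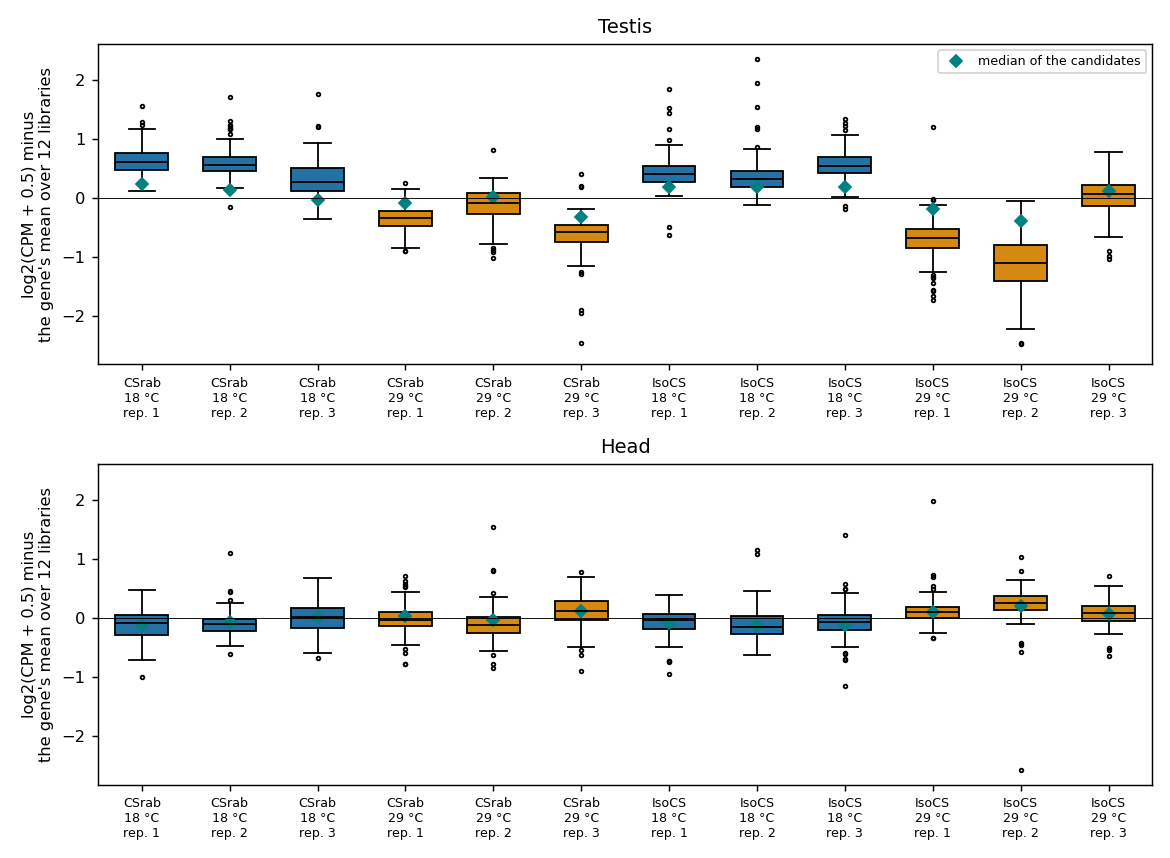
Deviation of log2(CPM + 0.5) of the 120 genes from each gene's mean over the 12 libraries of a tissue, 1 box per library (line, median; box, quartiles), with the median of the candidates as a diamond. Testis boxes at 18 °C have medians of 0.26 to 0.61, and those at 29 °C reach from -1.10 to 0.07, the highest being IsoCS replicate 3.

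Which of the genes differed between the strains was asked with both temperatures averaged, a contrast that the rule did not use. It comes from the same libraries, and where groups spread unequally, as IsoCS testes at 29 °C do, a choice on temperature ratios is not fully separate from the strain means. In testes 23 of the 120 genes passed an adjusted p of 0.05 in edgeR's quasi-likelihood test, where 23.4% of all tested genes did. Of these 22 were higher in CSrab and 1 was lower, where 12.6% and 10.8% of tested genes were. The median log2 strain difference of the group was 0.13, against 0.00 for all tested genes, and 87 of the 120 were above 0, where 49.8% of tested genes were. Of the candidates 14.5% passed, 9% higher and 5.5% lower in CSrab, so their calls leaned to CSrab, while their median difference was 0.006. The share called in the group, 19.2%, lay between those of the candidates and of all tested genes.

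The size of this count depends on IsoCS testes at 29 °C. Without replicate 3 of that group 50 genes passed, 49 higher and 1 lower in CSrab, where 33.5% of tested genes passed, and without CSrab replicate 2 at 29 °C 15 passed. At 18 °C alone, a comparison added after the data were seen, 22 passed, 21 higher and 1 lower in CSrab, with a median of 0.10. The counts of 15 and 22 are given without the share of all tested genes, so they are not set against it. No gene of the group had all 6 CSrab testis libraries above or below all 6 IsoCS libraries, where 2.88% and 3.47% of tested genes did. The rule chose genes that differ between temperatures within each strain, which makes such a separation hard to reach. Nothing about the strains is read from this count.

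The largest strain difference among the called genes was that of LOC101889291, which also ranked highest by the smaller of its testis ratios. LOC101889291 had 17.6 to 119.2 CPM in CSrab testes against 5.88 to 62.9 CPM in IsoCS testes, and at each temperature all 3 CSrab libraries lay above all 3 IsoCS libraries. Its fitted log2 difference was 1.30 ± 0.20 (SE, edgeR adjusted p = 0.00116), a fold of 2.46. The difference without replicate 3 of IsoCS testes at 29 °C was 1.43, and it was 1.26 for LOC101893794, 1.32 for LOC101892582 and -0.67 for LOC101893482, all with an adjusted p under 0.05. In heads it did not pass, at 0.06 ± 0.22 (adjusted p = 0.891).

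LOC101893794, on element E, had 179, 170 and 177 CPM in CSrab testes at 18 °C and 90.1, 96.1 and 53.5 CPM at 29 °C, against 48.7, 78.9 and 76.8 CPM and 35.7, 32.2 and 40.3 CPM in IsoCS testes. CSrab was above IsoCS at each temperature without overlap, by a log2 difference of 1.27 ± 0.13 (adjusted p = 7.84e-05). A gene on the same scaffold, LOC109611831, followed it. LOC109611831 had 82.1, 96.5 and 95.5 CPM in CSrab testes at 18 °C and 40.8, 49.0 and 28.5 CPM at 29 °C, against 29.1, 42.2 and 43.4 CPM and 21.6, 17.6 and 26.3 CPM in IsoCS testes. Its log2 difference was 1.08 ± 0.12 (adjusted p = 0.000156), again without overlap at either temperature. The scaffold carries 19 genes in the files, 5 of them candidates.

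LOC101892582, on element E, had 37.3, 37.5 and 29.5 CPM in CSrab testes at 18 °C and 14.0, 28.9 and 10.97 CPM at 29 °C, against 19.3, 17.0 and 14.3 CPM and 5.12, 5.80 and 12.7 CPM in IsoCS testes. The strains were apart at 18 °C and overlapped at 29 °C, and the log2 difference was 1.14 ± 0.22 (adjusted p = 0.00456). LOC101893482, on element C, was the gene that was lower in CSrab. It had 19.6, 18.3 and 15.9 CPM in CSrab testes at 18 °C and 8.62, 8.15 and 8.70 CPM at 29 °C, against 24.5, 28.7 and 26.0 CPM and 14.3, 14.2 and 19.0 CPM in IsoCS testes. The log2 difference was -0.68 ± 0.12 (adjusted p = 0.00188), with no overlap at either temperature. At 18 °C alone the difference was -0.50 and did not pass (adjusted p = 0.0675). The 1 gene counted above as lower in CSrab at 18 °C alone is therefore another, not named here. The other called genes had differences of 0.25 to 0.81.

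**Figure D4:**
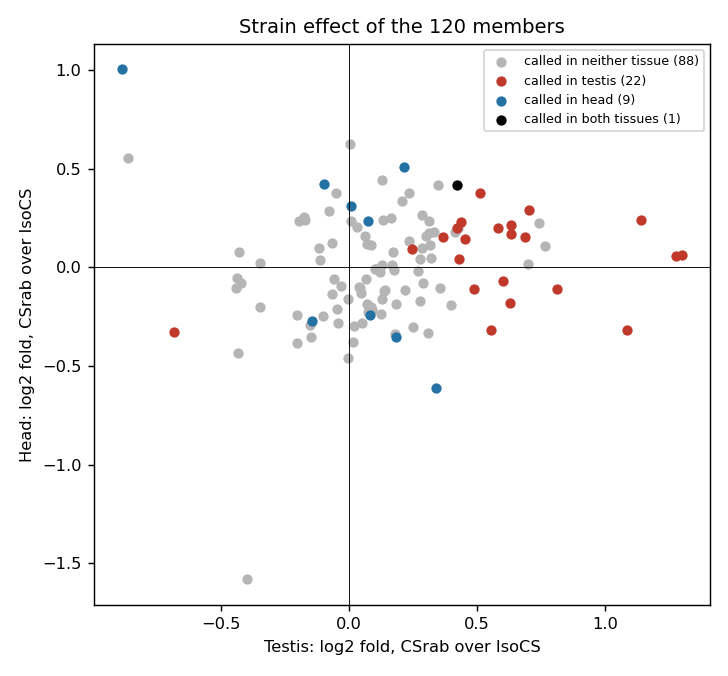
Fitted log2 strain difference (CSrab over IsoCS, averaged over temperatures) of the 120 genes in testis on one axis and in head on the other. Of the genes, 22 passed in testis only, 9 in head only, 1 in both and 88 in neither, and the testis calls lie almost all on the CSrab side.

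In heads 10 of the 120 genes passed for strain, where 12.2% of tested genes did, with 6 higher and 4 lower in CSrab, where 6.80% and 5.43% were. The median difference was 0.01. This count was sensitive to single libraries. It was 3 without replicate 1 or 3 of IsoCS heads at 18 °C or replicate 3 of IsoCS heads at 29 °C. Without any of 6 other libraries it was 4 to 6. The shares of all tested genes under these settings are not given here. LOC101894167 had the largest difference, with 606, 652 and 408 CPM in CSrab heads at 18 °C and 780, 829 and 724 CPM at 29 °C. In IsoCS heads it had 286, 337 and 290 CPM at 18 °C and 420, 319 and 442 CPM at 29 °C. CSrab lay above IsoCS at each temperature, by a log2 difference of 1.00 ± 0.16 (adjusted p = 0.00381). LOC101897517, on element E, was higher by 0.51 ± 0.12 (adjusted p = 0.0216), with 5.56 to 8.68 CPM in CSrab heads against 4.59 to 6.10 CPM in IsoCS heads and some overlap.

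LOC101896219, on element E, was lower in CSrab heads by a log2 difference of -0.61 ± 0.12 (adjusted p = 0.0119), with 5.82 to 9.55 CPM against 10.96 to 15.04 CPM in IsoCS heads and no overlap. LOC101901079, on element D, was lower by -0.35 ± 0.09 (adjusted p = 0.0374), with 17.2 to 21.6 CPM in CSrab heads against 19.5 to 32.5 CPM in IsoCS heads. Only LOC101892672 passed in both tissues with the same sign, higher in CSrab by 0.42 in testes and by 0.41 in heads, where 3.25% of genes tested in both did so. All 6 CSrab head libraries lay above all 6 IsoCS head libraries for 1 gene and below them for 4, where 2.07% and 3.10% of tested genes did.

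Whether the strain difference was unequal in the tissues was tested on all 24 libraries. The difference in testis minus that in head passed for 11 of the 120 genes, where 11.2% of tested genes did, with 9 above 0 and 2 below, where 4.69% and 6.54% were. The median was 0.11, against -0.07 for all tested genes, and without replicate 3 of IsoCS testes at 29 °C 25 genes passed, 22 above 0 and 3 below, where 17% of tested genes passed. Across the 120 genes the strain differences of the tissues had a Pearson r of 0.0988 and a Spearman rho of 0.197, and 69, or 57.5%, had the same sign. The values were 0.0911, -0.0262 and 49.05% for the candidates and 0.240, 0.119 and 52.3% for all genes tested in both. The genes share libraries and scaling, and no test was made of this relation.

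LOC101894167 showed the greatest gap between tissues. Its log2 strain difference was -0.89 ± 0.42 in testes, where it did not pass (adjusted p = 0.159), and 1.00 ± 0.16 in heads, and the gap was -1.93 ± 0.47 (adjusted p = 0.0125). Its testis values overlapped between the strains at each temperature, and its head values did not. LOC109611831 had the largest positive gap, 1.35 ± 0.18 (adjusted p = 8.22e-05), and its scaffold partner LOC101893794 had 1.17 ± 0.22 (adjusted p = 0.00194).

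The group held both testis and head transcripts. The level in testis over head, averaged over strains and temperatures, passed for 97 of the 120 genes, where 87.2% of tested genes did. Of these 76 were higher in testis and 21 were higher in head, where 45.9% and 41.3% of tested genes were. Among the candidates, which met the same minimum levels of 5 CPM in testis and 1 CPM in head, 51.0% passed higher in testis and 35.7% higher in head. The median log2 level difference was 0.67, against 0.12 for all tested genes and 0.24 for the candidates. With upper-quartile scaling, which moved the median of all genes to -0.14, 67 genes were higher in testis and 32 in head, with a median of 0.40. Leaving out replicate 3 of IsoCS testes at 29 °C gave 73 higher in testis and 25 in head. All 12 testis libraries lay above all 12 head libraries for 23 genes, where 23.5% of tested genes did, and below them for 10, where 21.0% did.

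At the testis end, LOC101893514 on element B had 20.9 to 83.6 CPM in testes, with a median of 53.2, against 0.704 to 2.32 CPM in heads, with a median of 1.08. Its log2 level difference was 5.56 ± 0.18, a fold of 47.3 (edgeR adjusted p = 5.12e-16). LOC101890268 had 6.72 to 97.3 CPM in testes against 1.44 to 3.31 CPM in heads, a log2 level difference of 4.53 ± 0.24, and LOC101900714 on element E had 11.98 to 38.8 CPM in testes against 0.604 to 1.66 CPM in heads, a log2 level difference of 4.43 ± 0.16. For each of these genes every testis library exceeded every head library.

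At the head end, LOC101892582 had 5.12 to 37.5 CPM in testes, with a median of 15.7, against 376 to 562 CPM in heads, with a median of 444. Its log2 level difference was -4.58 ± 0.14 (adjusted p = 1.30e-16), a level 23.8-fold higher in heads. LOC101890636 on element C had 22.9 to 60.9 CPM in testes against 195 to 294 CPM in heads, a log2 level difference of -2.48 ± 0.06, and LOC101887365 had 12.6 to 68.2 CPM in testes against 103 to 214 CPM in heads, at -2.17 ± 0.14. All head libraries exceeded all testis libraries in these genes. The temperatures of LOC101890636 did not overlap in the testes of either strain, with 57.7, 60.9 and 58.9 CPM in CSrab at 18 °C against 31.0, 37.0 and 23.8 CPM at 29 °C, and 53.8, 46.9 and 53.3 CPM in IsoCS at 18 °C against 24.7, 22.9 and 30.5 CPM at 29 °C.

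**Figure D5:**
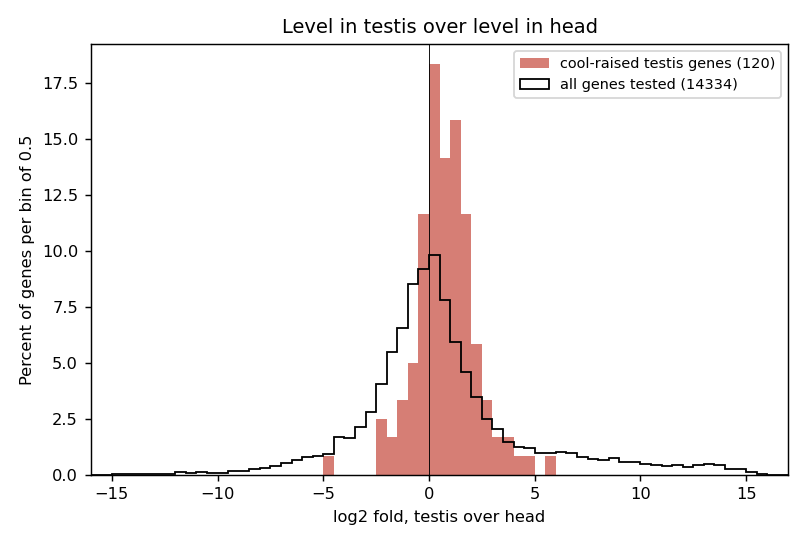
Fitted log2 level in testis over head for the 120 cool-raised testis genes and for all tested genes. The 120 genes run from -4.58 to 5.56 with a median of 0.67, against 0.12 for all tested genes.

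By position, the 120 genes were spread over 108 scaffolds of the assembly that the files use. Of these 99 carried 1 of the genes, 6 carried 2 and 3 carried 3. A scaffold of element D held LOC101889166, LOC101900304 and LOC101888288, one of element E held LOC101897393, LOC101888929 and LOC101887887, and one of element B held LOC101897398, LOC101900141 and LOC101898184. In the gene order of the newer RefSeq assembly LOC101897393 and LOC101887887 were direct neighbours, with 0 genes between them, LOC101896522 and LOC101896702 had 1 gene between them, and LOC101898184 and LOC101897398 had 2. Reads that overlapping or near-identical neighbours share could be counted for either gene, and the counting rule for such reads is not given in the sources used here.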

How the data were processed

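RNA of heads and testes was sequenced as stranded polyA libraries, per the labels' protocols. The authors deposited read counts per gene and library, raw and not normalized, and an adjusted interaction p-value per gene, per the file headers. The submitters' processing notes name HISAT2, SAMtools, HTSeq and DESeq2. Versions, genome build, annotation and the strand setting of the counting are not given in the sources used here, so antisense or overlapping genes may share reads. Of the per-sample columns 0 stayed without a sample.

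The cool-raised testis genes, the gene lists and the tests were chosen with earlier results of these data known. CPM was computed as count over column total. Fits used R 4.3.3, edgeR 4.0.16 and limma 3.58.1: filterByExpr (minimum count 10, minimum total 15), TMM, 1 coefficient per group, the quasi-likelihood F test and Benjamini-Hochberg adjustment over all genes tested, called under 0.05. Strain effects are CSrab over IsoCS averaged over temperatures, and temperature effects 18 °C over 29 °C. An SE is the log2 change over the square root of F. The fit was tested on simulated data with the same spread in every group and no shared movement of replicates. That simulation does not cover the unequal spread of IsoCS testes at 29 °C. DESeq2 1.42.0, other scalings and filters, a replicate block and each library left out were the alternatives; non-overlap counts, ratio agreement and sums without replicate 3 of IsoCS testes at 29 °C were added after the data were seen.

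Named genes are the 10 largest rule values, the 6 highest mean testis levels at 18 °C, the 3 largest strain differences per direction in testis and 2 in head among called genes, the 3 highest and lowest testis over head levels, the genes around the edge of the rule, and both extremes of the strain difference in ratio. LOC109611831, LOC101892672, LOC101899577 and the genes listed by scaffold or unequal strain difference were named after their values were seen. Product lists, protein families and promoter motifs were not applied, since the tables used here hold no product names or sequences.

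Same-numbered replicates deviated together, with every correlation over 0.1, between the temperatures of a strain in testes (0.156 to 0.313 in CSrab, 0.200 to 0.522 in IsoCS) and in CSrab heads (0.261 to 0.552), but not in IsoCS heads (-0.140 to 0.365) or between strains. The labels give no shared batch.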

Additional observations from a re-analysis of the deposited data

Results flagged for a closer look

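The strain difference (CSrab over IsoCS, averaged over temperatures) was unequal in testis and head for 11 of the 120 genes by a test of the difference itself on all 24 libraries (edgeR adjusted p under 0.05), which is what picked them out. The gap, testis minus head on the log2 scale, was above 0 for 9 genes. With the adjusted p in brackets, it was 1.35 for LOC109611831 (8.22e-05), 1.19 for LOC101889291 (0.0164), 1.17 for LOC101893794 (0.00194), 0.907 for LOC101896219 (0.0355), 0.874 for LOC101897468 (0.0422), 0.848 for LOC101892582 (0.0272), 0.763 for LOC101901233 (0.0124), 0.617 for LOC101893762 (0.00934) and 0.551 for LOC101896983 (0.00373). It was below 0 for LOC101894167, at -1.93 (adjusted p = 0.0125), and for LOC101887887, at -0.565 (adjusted p = 0.0209).

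LOC101896219 was lower in CSrab heads, at -0.61 ± 0.12, and had 0.34 ± 0.22 in testes (SE, edgeR adjusted p = 0.0119 and 0.302). LOC101887887 was higher in CSrab heads, at 0.42 ± 0.11 (adjusted p = 0.0338), and had -0.10 ± 0.11 in testes (adjusted p = 0.577). The other genes above 0 passed in testes and not in heads. Over all alternatives run, the adjusted p of the gap was 0.00819 to 0.0775 for LOC101897468, 0.00143 to 0.0732 for LOC101896219 and 0.00265 to 0.0583 for LOC101892582, and it stayed under 0.05 for the other 8 genes.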

How the results depend on the processing

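Each group has 3 replicates, and the lowest count of the 120 genes was 22 in a testis library and 11 in a head library, which limits precision for the low genes in heads. The list itself moved with its limits. Of the 120 genes, 53 were found again with head ratios between -0.25 and 0.25, 92 with TMM scaling, and 78 (without CSrab heads at 29 °C replicate 3) to 118 with a library left out. The median within-group correlation in testes was 0.199 without IsoCS testes at 29 °C, an alternative chosen after seeing the data.

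With no filter on low counts, 17 genes passed for temperature in CSrab testes and 18 in IsoCS testes, and 6 for strain in heads. DESeq2's Wald test gave 59 for IsoCS testes, 16 for strain in heads and 3 for CSrab heads. With each library left out in turn, counts ran from 15 to 50 for strain in testes, 3 to 12 for strain in heads, 8 to 25 for the gap between tissues and 94 to 99 for testis over head. They ran from 11 to 59 for temperature in CSrab testes, 9 to 103 in IsoCS testes, 0 to 2 for the interaction and 0 to 0 in heads. Without replicate 3 of IsoCS testes at 29 °C came the highest of each of these testis counts except testis over head. The causes were not tested, and these counts are given here without the share of all tested genes under each setting.

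Across strains same-numbered replicates did not all deviate together, while testis libraries did so partly under other numbers. Some head libraries did too. At 29 °C the correlation was 0.648 between CSrab replicate 3 and IsoCS replicate 2, and 0.544 between CSrab replicate 1 and IsoCS replicate 3. The replicate block joins same numbers, so its strain counts in either tissue do not cover such matches. With the replicate block, 20 genes passed for strain in testes, 7 for strain in heads, 11 for the gap between tissues and 98 for testis over head. For temperature the block gave 21 in CSrab testes, 23 in IsoCS testes and 0 in heads, and 0 for the interaction; a block within strain gave 27 and 31 in testes. Single genes were followed for the largest called strain differences, the highest and lowest testis over head levels and the called gaps between tissues. None of these changed sign under any alternative run. Temperature effects of single genes were not followed in this way.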

Other observations

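The same level and ratio conditions were met by 37 genes that the rule leaves out by element. Of these 24 lie on element A, 2 on element F and 11 have no element in the files. Among genes with the same level and head ratios, that is 4.83% of 497 on element A, 15.4% of 13 on element F and 4.06% of 271 with no element, against 6.0% of 2000 candidates of elements B to E. The largest smaller ratio among them was 1.44, for LOC101888231, which has no element and averaged 10.9 CPM in testes and 3.35 CPM in heads. On element A the largest was 1.04, for LOC101888608, which averaged 27.2 CPM in testes and 13.0 CPM in heads. These genes were not used in the comparisons above.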
